A study of Mus musculus with 14 samples.

Results

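ATP-binding cassette (ABC) genes were followed in mouse liver across 3 treatment groups. The members were all genes of the array whose single platform symbol begins with Abca, Abcb, Abcc, Abcd, Abce, Abcf or Abcg and a digit. This rule found 36 genes, covered by 65 probe sets, among 12394 genes with a symbol on the array. Each gene was read from its probe set with the highest mean over the 14 arrays. Of the 36 members, 28 passed the filter on low intensity and were tested.

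All livers came from C57BL/6J DIO mice, which are obese through diet. They had received Jnk1 Adv-shRNA (5 arrays, numbered 1 to 5), GFP Adv-shRNA (4 arrays, numbered 1, 2, 3 and 5) or vehicle (5 arrays, numbered 1 to 5). Adv-shRNA is an adenovirus that makes a short hairpin RNA, here against Jnk1, the kinase gene Mapk8, or against green fluorescent protein as a control virus. The virus dose, its promoter, the hairpin sequence, the time after infection, and the age and sex of the mice are not given here. Values are probe set intensities after quantile normalization, given in array order, and are not compared between probe sets. The labels do not say that each array stands for its own mouse, so p-values measure only the spread between these arrays, which may be technical.

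Mapk8 was lower in every Jnk1 shRNA array, at 6.07 ± 0.18 (SD, n = 5, log2 intensity) against 7.38 ± 0.09 in GFP shRNA (n = 4) and 7.47 ± 0.14 in vehicle livers (n = 5; exact two-sided permutation p = 0.00794 for both, the smallest the design allows). The Jnk1 shRNA mean was 40.2% of the GFP shRNA mean. Added hybridization control RNAs read lower and more variably on the Jnk1 shRNA arrays, at 8.39 ± 0.32 against 8.89 ± 0.07 in GFP shRNA and 8.90 ± 0.09 in vehicle (log2, exact two-sided permutation p = 0.0159 for both). Jnk1 shRNA array 1 was the lowest, at 7.92. GFP shRNA array 2 stood apart: it had the highest median of all arrays (58.3) and correlated least with its group, at 0.942 on average. All 7 hepatocyte markers on the array passed the filter, 0 of 6 biliary epithelial markers on it did, and endothelial markers were lower in Jnk1 shRNA livers for 3 of 9 tested genes against GFP shRNA and 5 of 9 against vehicle. Over all tested probe sets, 15.8% and 18.7% were lower. Of 2 tested T, NK and B cell markers, 0 passed an adjusted p under 0.05 (limma) against GFP shRNA (1 lower at an unadjusted p under 0.05). Nkg7, 1 of these 2, was higher than vehicle in both virus groups. Its vehicle values were 7.94 to 17.5, under 28.4, the lowest mean that passed the filter. In bulk liver, fewer cells of a type and less RNA per cell cannot be told apart.

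ABC proteins use ATP to move lipids, bile constituents, drugs and conjugated waste across membranes. In hepatocytes, some sit in the canalicular membrane and build bile, others load cholesterol onto lipoproteins or carry fatty acids into peroxisomes, and the soluble E and F families work at the ribosome instead. Nuclear receptors that sense bile acids and oxysterols are known to control several of them.

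Between Jnk1 shRNA and GFP shRNA livers, 7 of the 28 tested members were higher and 5 were lower at an adjusted p under 0.05 (limma, adjusted over all 13575 tested probe sets). That is 42.9% of the members, against 33.1% of all tested probe sets (17.3% higher and 15.8% lower), so the share of changed members was near the array-wide one. Against vehicle, 6 members were higher and 5 lower (39.3%), and 37.6% of all probe sets were called (18.9% higher and 18.7% lower). Both comparisons use the same 5 Jnk1 shRNA arrays. In GFP shRNA against vehicle, 0 of 28 members passed limma's adjusted test (4 higher and 3 lower at an unadjusted p under 0.05), where 2.58% of all probe sets were called (2.05% higher and 0.53% lower). The members' median log2 difference was -0.03, 0.01 and 0.03 in these comparisons, beside -0.01, -0.02 and -0.02 over all tested probe sets. Arrays scaled to the same median moved the median of all probe sets to 0.09 against GFP shRNA, and 72.3% of all calls were then higher, against 52.3% as reported. The members split into 10 higher and 2 lower against GFP shRNA under that scaling. The control RNA level was itself lower in Jnk1 shRNA, so as a covariate it cannot be fully separated from the group. With it, 5 were higher and 3 lower against each control. These counts hold Abcb1a, which passed the filter only through its Jnk1 shRNA values and so had to differ. Without it, 6 of 27 members were higher and 5 lower against GFP shRNA (40.7%), and 5 were higher and 5 lower against vehicle (37.0%), with medians of -0.03 and -0.05. The groups did not overlap for 7 of these 27 against GFP shRNA, where 28.1% of all probe sets did not overlap, and for 7 against vehicle, where 27.7% did not. Abca3, Abca8a, Abcb8, Abcd2 and Abcd3 were higher against both controls, and Abca1, Abcb11, Abcc6 and Abcg4 were lower against both. Abcf2 was called higher and Abcb4 lower against GFP shRNA alone, and Abcg8 lower against vehicle alone.

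**Figure D1:**
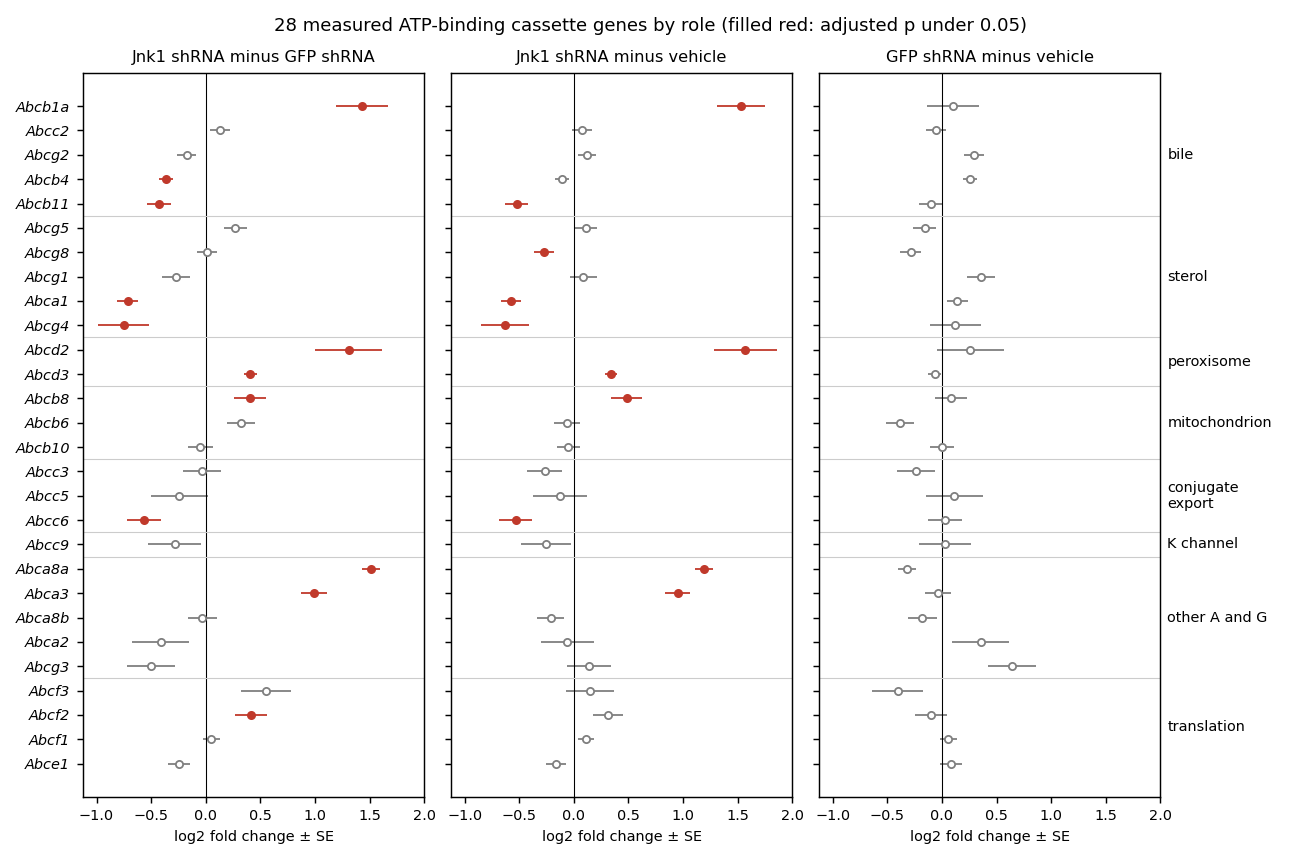
Log2 differences in intensity with standard errors for the 28 tested ABC genes, grouped by role, for Jnk1 shRNA against GFP shRNA and against vehicle and for GFP shRNA against vehicle. Filled red points passed an adjusted p under 0.05, but that of Abcb1a is no test, since it passed the filter only through Jnk1 shRNA. Abca8a, Abcb1a and Abcd2 lie farthest right, and no point of GFP shRNA against vehicle is filled.

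Of the 6 members that export material into bile, 5 passed the filter. Abcb11 and Abcb4 fell against GFP shRNA, and Abcc2 and Abcg2 did not pass the test. Abcb11, the bile salt export pump, had 1185, 933, 794, 1059.9 and 1089 in Jnk1 shRNA livers, 1519, 1421, 1188 and 1283 in GFP shRNA livers and 1210.1, 1482, 1489, 1514 and 1541 in vehicle livers. Every Jnk1 shRNA array lay below every control array, narrowly so for Jnk1 shRNA array 1 and GFP shRNA array 3. The log2 difference of Abcb11 was -0.43 ± 0.11 (adjusted p = 0.00684) against GFP shRNA, which is 1.34-fold lower, and -0.52 ± 0.10 (adjusted p = 0.00076) against vehicle, or 1.44-fold lower. With arrays scaled to the same median instead, the difference from GFP shRNA was -0.23 (adjusted p = 0.27). Hepatocyte markers were lower for 3 of 7 tested genes against GFP shRNA and 5 of 7 against vehicle, beside 15.8% and 18.7% of all probe sets. Their sums were 27415 to 29343 in Jnk1 shRNA, 30138 to 31342 in GFP shRNA and 29906 to 32901 in vehicle livers. Apoa1, 1 of these markers, read exactly 6571.5 on arrays of all 3 groups, since quantile normalization gives equal ranks equal values. The part of the markers in Abcb11 was not tested.

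Abcb4 moves phosphatidylcholine into bile. It had 952, 1156, 1073, 989.9 and 958 in Jnk1 shRNA livers, 1268, 1293, 1433 and 1272 in GFP shRNA livers and 1147, 1116, 1078, 1099 and 1070.2 in vehicle livers. The GFP shRNA livers were the ones that stood highest here, above every array of both other groups, whereas Jnk1 shRNA and vehicle overlapped. Abcb4 differed by -0.36 ± 0.07 (adjusted p = 0.000536) between Jnk1 shRNA and GFP shRNA on the log2 scale, and by -0.11 ± 0.06 (adjusted p = 0.196) between Jnk1 shRNA and vehicle. Its difference of 0.25 ± 0.07 (adjusted p = 0.0529) between GFP shRNA and vehicle missed the threshold. The call against GFP shRNA was lost with median scaling (-0.18, adjusted p = 0.273) and with the control RNA level as a covariate (-0.24, adjusted p = 0.0768).

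Abcb1a encodes a P-glycoprotein, which pumps out drugs. Its probe set had 64.9, 79.6, 69.8, 63.5 and 53.5 in Jnk1 shRNA livers, 26.1, 19.5, 22.8 and 30.6 in GFP shRNA livers and 27.0, 25.2, 26.2, 12.8 and 26.8 in vehicle livers. All 5 Jnk1 shRNA arrays were above all 9 control arrays. The mean log2 difference was 1.43 from GFP shRNA and 1.53 from vehicle, given as a description with no test. Group means were 65.7 in Jnk1 shRNA, 24.4 in GFP shRNA and 22.8 in vehicle livers, and both control means lay under 28.4, the lowest mean that passed the filter. The size of the difference is therefore uncertain too. Abcb1b, the second mouse P-glycoprotein gene and the next gene along chromosome 5, had 2.67 to 18.7 in Jnk1 shRNA livers, 4.96 to 17.6 in GFP shRNA livers and 2.01 to 17.6 in vehicle livers and was too low to test. Abcb4 follows it in RefSeq gene order.

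Abcc2, which exports conjugated bilirubin and glutathione into bile, ranged over 480.4 to 617 in Jnk1 shRNA livers, 457 to 545 in GFP shRNA livers and 449.8 to 570.1 in vehicle livers. Its groups overlapped, and its log2 difference was 0.13 ± 0.09 (adjusted p = 0.315) against GFP shRNA and 0.07 ± 0.09 (adjusted p = 0.553) against vehicle. Abcg2, an exporter of drugs and conjugates, ranged over 746 to 978 in Jnk1 shRNA livers, 873 to 1064 in GFP shRNA livers and 738 to 839 in vehicle livers. All GFP shRNA arrays exceeded all vehicle arrays, yet the difference of 0.30 ± 0.09 (adjusted p = 0.105) did not pass, and the Jnk1 shRNA arrays overlapped both controls. Abcb4 and Abcg2 were the members whose GFP shRNA and vehicle arrays did not overlap, as in 6.3% of all probe sets.

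**Figure D2:**
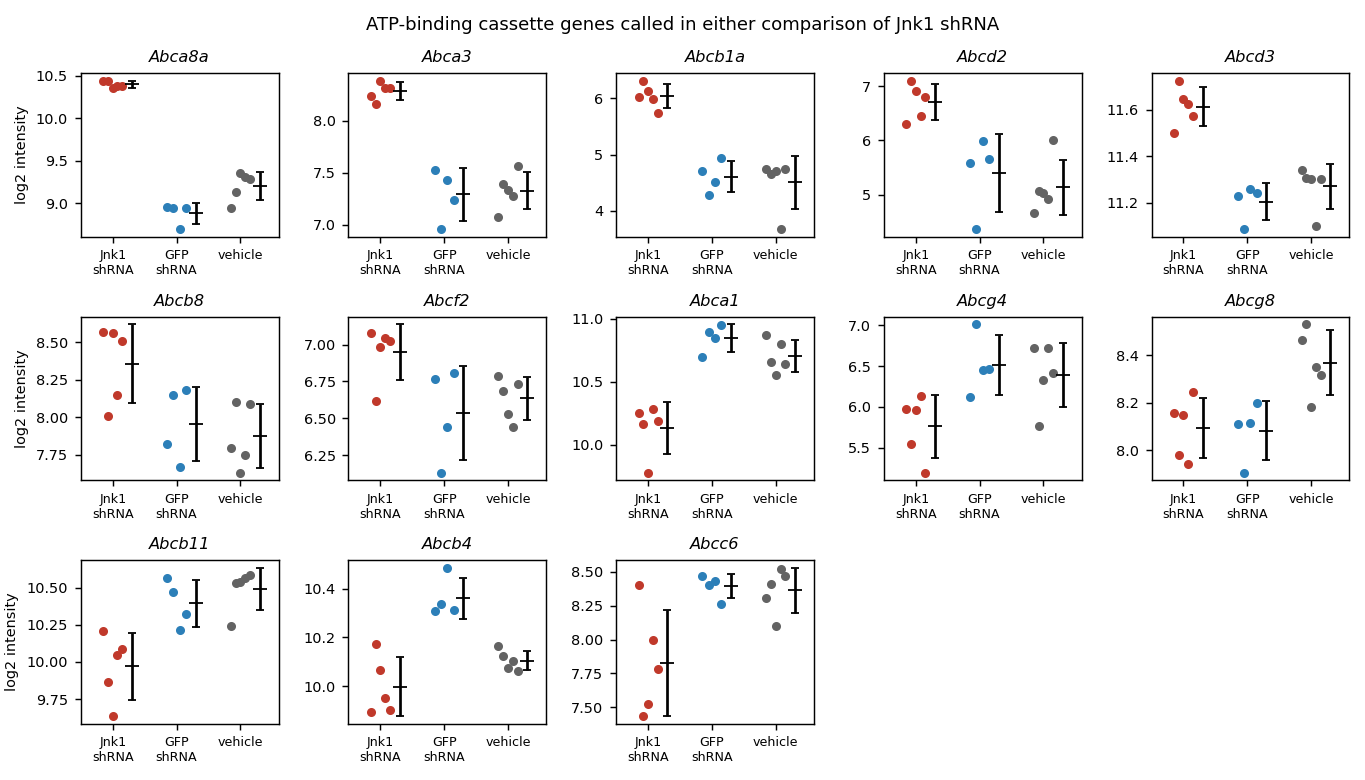
Quantile-normalized intensity of the called ABC genes on each array, as log2 with a separate axis per gene, for Jnk1 shRNA (5 arrays), GFP shRNA (4) and vehicle (5). Dashes are group means and bars their SD. All Jnk1 shRNA points of Abca8a, Abca3, Abcb1a, Abcd2 and Abcd3 lie above the control points and those of Abca1 and Abcb11 below them, while those of Abcb8, Abcc6, Abcf2 and Abcg4 overlap the controls.

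All 5 sterol transporters were tested. By limma, 0 were higher against either control (1 and 0 at an unadjusted p under 0.05), though Abcg5 became higher under some alternatives. Abca1 and Abcg4 fell against both controls, Abcg8 fell against vehicle only, and Abcg1 and Abcg5 did not pass. Abca1, which hands cholesterol and phospholipid to apolipoprotein A-I, had 1216, 1145, 877, 1248 and 1168 in Jnk1 shRNA livers, 1657, 1905, 1842 and 1982 in GFP shRNA livers and 1878, 1619, 1504, 1784 and 1599 in vehicle livers. Each Jnk1 shRNA array was below each control array, with array 3 the lowest. Abca1 was 1.64-fold lower than in GFP shRNA livers, a log2 difference of -0.72 ± 0.10 (adjusted p = 3.65e-05), and 1.49-fold lower than in vehicle livers, at -0.57 ± 0.09 (adjusted p = 0.000114). Its other probe sets gave -1.07 ± 0.11 and -0.94 ± 0.15 against GFP shRNA and -0.91 ± 0.11 and -0.87 ± 0.14 against vehicle. Macrophages also use Abca1. Of 9 tested macrophage markers, 8 were lower against GFP shRNA and 5 of 9 against vehicle, beside 15.8% and 18.7% of all tested probe sets. Their summed intensities were 2527 to 3108 in Jnk1 shRNA, 4740 to 5323 in GFP shRNA and 2845 to 4597 in vehicle livers. The part of the markers in the Abca1 values was not tested.

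Abcg1, which passes cholesterol to lipoprotein particles and is likewise used by macrophages, had 124, 130.3, 163, 122 and 160.3 in Jnk1 shRNA livers, 165, 154, 154 and 199.8 in GFP shRNA livers and 125, 155, 139, 129.6 and 109 in vehicle livers. The arrays overlapped, with log2 differences of -0.27 ± 0.13 (adjusted p = 0.119) against GFP shRNA and 0.09 ± 0.12 (adjusted p = 0.608) against vehicle. Abcg4, its close relative, had 63.0, 46.8, 62.4, 70.2 and 36.6 in Jnk1 shRNA livers, 69.9, 129, 87.8 and 88.2 in GFP shRNA livers and 105, 54.6, 80.4, 106 and 85.5 in vehicle livers. Its groups overlapped at the edges, and its differences were -0.75 ± 0.23 (adjusted p = 0.0197) and -0.63 ± 0.22 (adjusted p = 0.0318). The call against GFP shRNA was lost without GFP shRNA array 2 (-0.59, adjusted p = 0.0703) or Jnk1 shRNA array 5 (-0.61, adjusted p = 0.0522). It was also lost with the control RNA level as a covariate (-0.98, adjusted p = 0.0661) and without both arrays that stood apart, GFP shRNA array 2 and Jnk1 shRNA array 1 (-0.64, adjusted p = 0.0665). The call against vehicle was lost without vehicle array 1, 4 or 5 or Jnk1 shRNA array 2 or 5, at -0.49 without the last of these, with no filter (-0.63, adjusted p = 0.0609) and with the covariate (-0.87, adjusted p = 0.0879).

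Abcg5 and Abcg8 are adjacent genes on chromosome 17 whose products pair to push sterols into bile. Abcg5 had 651, 614, 621, 554 and 648 in Jnk1 shRNA livers, 580.4, 487, 456 and 532 in GFP shRNA livers and 629, 701, 565, 501 and 487 in vehicle livers. Its groups overlapped. Abcg8 had 285, 252, 284, 246 and 303 in Jnk1 shRNA livers, 277, 239.9, 277 and 294 in GFP shRNA livers and 354, 369.9, 291, 327 and 319 in vehicle livers. The vehicle arrays of Abcg8 were the high ones, and the Jnk1 and GFP shRNA arrays covered much the same span. Abcg8 differed by -0.27 ± 0.09 (adjusted p = 0.0223) from vehicle, 1.21-fold lower, and by 0.01 ± 0.09 (adjusted p = 0.94) from GFP shRNA. GFP shRNA against vehicle gave -0.29 ± 0.09 (adjusted p = 0.139). Abcg5 differed by 0.27 ± 0.11 (adjusted p = 0.0621) from GFP shRNA and 0.11 ± 0.10 (adjusted p = 0.412) from vehicle. Against GFP shRNA it became a call with intensities as deposited (0.33, adjusted p = 0.0251) and with median scaling (0.49, adjusted p = 0.0111). The same held for 2-group fits, a replicate block, and leaving out vehicle array 2, GFP shRNA array 1 or Jnk1 shRNA array 4. The Abcg8 call was lost under 7 of 25 alternatives. These were leaving out vehicle array 1 or 2 or Jnk1 shRNA array 2 or 4, intensities as deposited (-0.21, adjusted p = 0.0697), median scaling (-0.19, adjusted p = 0.246) and the control RNA level as a covariate (-0.31, adjusted p = 0.138).

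Promoter sequence is shown for Abca1 and Abcb11, the sterol and bile members that were lower against both controls without overlap, because each held a repeat of the receptor that is known to act on it. The windows run from 250 bases before to 50 after the RefSeq start (GRCm38.p6) and are written 5′ to 3′ on the gene's strand; the Abca1 window is chr4:53159846-53160145, minus strand, and the Abcb11 window is chr2:69342567-69342866, minus strand. Capitals mark the motif matches, and positions count the start base as 0.
Abca1: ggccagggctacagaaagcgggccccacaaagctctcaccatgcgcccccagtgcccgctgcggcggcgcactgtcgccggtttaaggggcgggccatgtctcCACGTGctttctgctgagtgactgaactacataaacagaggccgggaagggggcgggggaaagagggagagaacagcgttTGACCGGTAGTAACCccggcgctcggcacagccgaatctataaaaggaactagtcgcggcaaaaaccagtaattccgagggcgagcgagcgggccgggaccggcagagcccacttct
Abcb11: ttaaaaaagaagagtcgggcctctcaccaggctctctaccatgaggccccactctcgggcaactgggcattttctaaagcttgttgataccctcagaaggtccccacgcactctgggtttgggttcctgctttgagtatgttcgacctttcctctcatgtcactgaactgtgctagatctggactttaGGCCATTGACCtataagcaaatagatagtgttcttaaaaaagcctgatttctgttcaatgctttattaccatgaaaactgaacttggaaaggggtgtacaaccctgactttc
Both strands were searched. In Abca1, the liver X receptor direct repeat, TNACC and again TNACC with 5 bases between, matched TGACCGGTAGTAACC at -67 to -53, and an E-box, CACGTG, lay at -147 to -142. In Abcb11, the bile acid receptor inverted repeat, GGNCA and TGNCC with 1 base between, matched GGCCATTGACC at -62 to -52. Of 32851 mouse promoter windows, 0.718% held the first repeat, 0.676% the second and 7.15% the E-box. No other of the 27 members with a promoter in the table held either repeat, and none held the AP-1 motif TGANTCA (7.81% of windows) or the peroxisome proliferator receptor repeat, AGGNCA and AGGNCA with 1 base between (0.381%). Abcb8, Abcc1, Abcc3, Abcc6, Abcc8, Abcd2, Abcd4, Abcg1 and Abcg4, the 9 members without a window, were not searched. Both windows were picked for their match, so these shares are no test of it. A match is a string of letters and not a shown binding site.

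Both peroxisomal members rose against both controls. Abcd3, which carries branched fatty acids and bile acid precursors into the peroxisome, had 2891, 3382, 3204, 3154 and 3044 in Jnk1 shRNA livers, 2401, 2176, 2449.7 and 2424 in GFP shRNA livers and 2591, 2535, 2523, 2199 and 2528 in vehicle livers. Abcd2, which carries very long chain fatty acids, had 78.9, 137, 120.0, 86.9 and 111 in Jnk1 shRNA livers, 48.3, 20.7, 63.4 and 50.5 in GFP shRNA livers and 25.6, 33.5, 32.8, 30.3 and 64.0 in vehicle livers. In both genes the lowest Jnk1 shRNA array lay above the highest control array after quantile normalization. As deposited, Abcd3 overlapped both controls. Its Jnk1 shRNA array 1 read 2500, below GFP shRNA arrays 3 and 5 (2523 and 2582) and vehicle arrays 2, 3 and 5 (2766, 2653 and 2754). Abcd3 was 1.33-fold higher than in GFP shRNA, a log2 difference of 0.41 ± 0.06 (adjusted p = 8.62e-05), and 1.27-fold higher than in vehicle, at 0.34 ± 0.06 (adjusted p = 0.000184). Abcd2 was 2.47-fold higher than in GFP shRNA, at 1.31 ± 0.31 (adjusted p = 0.00385), and 2.97-fold higher than in vehicle, at 1.57 ± 0.29 (adjusted p = 0.000447). The intensities as deposited gave a smaller difference of Abcd3 from vehicle, 0.11 (adjusted p = 0.276), and so did median scaling, 0.14 (adjusted p = 0.435). The low GFP shRNA value of Abcd2 is array 2, and without it the difference was 0.96 (adjusted p = 0.00985).

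Of 23 tested genes of peroxisome assembly and peroxisomal beta-oxidation outside the family, 10 were higher and 4 lower against GFP shRNA, and 7 were higher and 6 lower against vehicle. All tested probe sets gave 17.3% higher and 15.8% lower against GFP shRNA, and 18.9% and 18.7% against vehicle. The list's median difference was 0.07 and -0.00. Acot8, a peroxisomal acyl-CoA thioesterase, differed by 1.12 ± 0.16 (adjusted p = 5.03e-05) and 1.16 ± 0.15 (adjusted p = 1.43e-05). Ehhadh, an enzyme of peroxisomal beta-oxidation, differed by 0.98 ± 0.17 (adjusted p = 0.000398) and 0.77 ± 0.16 (adjusted p = 0.00131). Pex19, which brings membrane proteins to the peroxisome, differed by 0.62 ± 0.08 (adjusted p = 3.80e-05) and 0.55 ± 0.08 (adjusted p = 4.40e-05). Phyh, which starts the breakdown of phytanic acid, fell, at -0.35 ± 0.07 (adjusted p = 0.00113) and -0.54 ± 0.07 (adjusted p = 8.78e-06).

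Among the 28 members, the largest log2 difference from GFP shRNA was that of Abca8a, a lipid transporter of the A family. It had 1386, 1392, 1313, 1329 and 1327 in Jnk1 shRNA livers, 495, 492, 415 and 493 in GFP shRNA livers and 493, 563, 656, 633 and 623 in vehicle livers. The 5 Jnk1 shRNA arrays lay close together, and every one exceeded every control array. Abca8a was 2.85-fold higher than in GFP shRNA, at 1.51 ± 0.08 (adjusted p = 4.09e-09), and 2.28-fold higher than in vehicle, at 1.19 ± 0.08 (adjusted p = 1.62e-08). GFP shRNA against vehicle gave -0.32 ± 0.08 (adjusted p = 0.0539). Abca8b, the next gene on chromosome 11, ranged over 109 to 148 in Jnk1 shRNA livers, 121 to 149 in GFP shRNA livers and 120.4 to 184 in vehicle livers. Its groups overlapped, with differences of -0.03 ± 0.13 (adjusted p = 0.876) and -0.21 ± 0.13 (adjusted p = 0.205). Whether either probe set also binds RNA of the neighbour was not tested.

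The promoters of these neighbours are given because the genes lie side by side and only Abca8a was called. The windows are chr11:110095888-110096187, minus strand, for Abca8a and chr11:109995796-109996095, minus strand, for Abca8b (RefSeq, GRCm38.p6), written in the same way with the E-box CACGTG in capitals.
Abca8a: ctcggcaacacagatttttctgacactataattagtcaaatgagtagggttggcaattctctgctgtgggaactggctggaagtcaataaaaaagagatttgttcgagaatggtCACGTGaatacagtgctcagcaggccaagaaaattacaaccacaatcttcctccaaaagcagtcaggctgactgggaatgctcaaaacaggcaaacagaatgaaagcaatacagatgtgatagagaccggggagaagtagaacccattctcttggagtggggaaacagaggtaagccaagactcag
Abca8b: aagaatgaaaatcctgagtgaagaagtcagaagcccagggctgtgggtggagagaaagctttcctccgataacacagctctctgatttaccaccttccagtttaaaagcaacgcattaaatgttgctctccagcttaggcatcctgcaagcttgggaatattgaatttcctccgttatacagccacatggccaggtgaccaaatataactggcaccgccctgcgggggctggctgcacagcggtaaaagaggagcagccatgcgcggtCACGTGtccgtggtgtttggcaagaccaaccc
The E-box lay at -136 to -131 in Abca8a and at 18 to 23 in Abca8b. Besides these neighbours and Abca1, Abcf1 held it too, at -101 to -96, and Abcf1 was not called.

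Abca3, best known for packing surfactant lipids in the lung, had 302, 285, 334, 318 and 318 in Jnk1 shRNA livers, 185, 124, 173 and 151 in GFP shRNA livers and 135, 168, 161, 155 and 189 in vehicle livers. Again the Jnk1 shRNA arrays were above all others. Abca3 was 1.98-fold higher than in GFP shRNA, at 0.99 ± 0.12 (adjusted p = 1.23e-05), and 1.93-fold higher than in vehicle, at 0.95 ± 0.11 (adjusted p = 5.90e-06). A second probe set gave 0.89 ± 0.11 and 0.72 ± 0.11. Abca2, which is linked to lipid handling in the nervous system, ranged over 38.0 to 68.4 in Jnk1 shRNA livers, 53.9 to 77.9 in GFP shRNA livers and 36.6 to 88.0 in vehicle livers, and did not pass, at -0.41 ± 0.26 (adjusted p = 0.241) against GFP shRNA and -0.06 ± 0.25 (adjusted p = 0.877) against vehicle. Abcg3, a member found in rodents, ranged over 32.0 to 44.8 in Jnk1 shRNA livers, 37.4 to 67.2 in GFP shRNA livers and 22.0 to 42.5 in vehicle livers. It did not pass either, at -0.50 ± 0.22 (adjusted p = 0.0888) and 0.14 ± 0.21 (adjusted p = 0.635). Abca4, the retinal lipid transporter, and Abca7 did not pass the filter, and their highest values were 6.56 and 9.61 in Jnk1 shRNA, 6.03 and 32.5 in GFP shRNA and 3.90 and 9.14 in vehicle livers.

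Among the mitochondrial members, Abcb8 rose and Abcb6 and Abcb10 did not pass. Abcb8, an inner membrane transporter tied to iron balance, had 380.2, 257, 378, 284 and 364 in Jnk1 shRNA livers, 226, 284, 204 and 290.0 in GFP shRNA livers and 222, 275, 198, 215 and 272 in vehicle livers. The arrays overlapped. Abcb8 was 1.32-fold higher than in GFP shRNA, at 0.40 ± 0.15 (adjusted p = 0.0471), and 1.4-fold higher than in vehicle, at 0.48 ± 0.14 (adjusted p = 0.0116). The first of these calls was lost under 12 of 25 alternatives, among them leaving out vehicle array 1 or 4, GFP shRNA array 1 or 3, or Jnk1 shRNA array 1, 3 or 5, with a lowest value of 0.18 (adjusted p = 0.615) when the control RNA level was a covariate. The second was lost under that covariate (0.25, adjusted p = 0.438). Abcb6, linked to porphyrin transport, ranged over 261 to 292 in Jnk1 shRNA livers, 179.6 to 279 in GFP shRNA livers and 235 to 352 in vehicle livers, and differed by 0.32 ± 0.13 (adjusted p = 0.0674) from GFP shRNA and -0.06 ± 0.12 (adjusted p = 0.723) from vehicle. Abcb10, which serves heme synthesis, ranged over 118 to 151 in Jnk1 shRNA livers, 129 to 166 in GFP shRNA livers and 130.1 to 166 in vehicle livers, and differed by -0.05 ± 0.11 (adjusted p = 0.768) and -0.05 ± 0.10 (adjusted p = 0.748). Of 16 tested iron-sulfur and heme genes outside the family, 0 were higher and 4 lower against each control (limma). At an unadjusted p under 0.05, 2 were higher against GFP shRNA and 0 against vehicle. Of all tested probe sets, 17.3% were called higher and 15.8% lower against GFP shRNA, and 18.9% and 18.7% against vehicle. Slc25a37, the mitochondrial iron importer, differed by -0.79 ± 0.12 (adjusted p = 8.74e-05) from GFP shRNA, and Fdx1, a ferredoxin, by -0.63 ± 0.08 (adjusted p = 1.53e-05). Of 3 erythroid markers on the array, Alas2, the heme synthesis enzyme of red cell precursors, passed the filter. It had 182, 130.1, 109, 151 and 105 in Jnk1 shRNA livers, 633, 493, 572 and 462 in GFP shRNA livers and 518, 536, 543, 513 and 617 in vehicle livers, with differences of -2.02 ± 0.14 (adjusted p = 7.95e-08) and -2.04 ± 0.14 (adjusted p = 1.63e-08), and its part in the iron and heme values was not tested.

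Abcc6 was the member of the conjugate exporters that fell. Loss of Abcc6, which lets hepatocytes release ATP, causes ectopic calcification. It had 339, 173, 184, 256 and 221 in Jnk1 shRNA livers, 354, 339, 345 and 308 in GFP shRNA livers and 317, 341, 274, 368 and 354 in vehicle livers. Array 1 of Jnk1 shRNA lay among the controls and the other 4 lay below them all. Abcc6 was 1.48-fold lower than in GFP shRNA, at -0.56 ± 0.16 (adjusted p = 0.0114), and 1.45-fold lower than in vehicle, at -0.53 ± 0.15 (adjusted p = 0.00929). Array 1 was also the array with the lowest control RNA level, and without it the difference from GFP shRNA was -0.71 (adjusted p = 0.000506). Median scaling gave -0.37 (adjusted p = 0.115), and the control RNA level as a covariate gave -0.99 (adjusted p = 0.00237).

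Abcc3, which returns conjugates from hepatocytes to blood, ranged over 258 to 478 in Jnk1 shRNA livers, 319.9 to 435 in GFP shRNA livers and 327 to 547 in vehicle livers. It differed by -0.03 ± 0.17 (adjusted p = 0.905) from GFP shRNA and -0.27 ± 0.16 (adjusted p = 0.219) from vehicle. Abcc5, an exporter of cyclic nucleotides, ranged over 71.9 to 132 in Jnk1 shRNA livers, 55.7 to 165 in GFP shRNA livers and 98.9 to 129 in vehicle livers, at -0.24 ± 0.26 (adjusted p = 0.503) and -0.13 ± 0.24 (adjusted p = 0.721). Their groups overlapped and neither passed the test. Abcc9, a regulatory subunit of potassium channels that vascular wall cells express, ranged over 29.2 to 44.1 in Jnk1 shRNA livers, 29.2 to 49.5 in GFP shRNA livers and 23.6 to 51.9 in vehicle livers and differed by -0.28 ± 0.24 (adjusted p = 0.389) and -0.26 ± 0.23 (adjusted p = 0.409). Stellate markers were lower for 5 of 7 tested genes against GFP shRNA and 3 of 7 against vehicle, beside 15.8% and 18.7% of all tested probe sets. Their sums were 1670.5 to 1910.3 in Jnk1 shRNA, 2411 to 2749 in GFP shRNA and 2363 to 2485 in vehicle livers, and their part in Abcc9 was not tested. Abcc1, Abcc10, the insulin-secretion regulator Abcc8, and the lysosomal members Abcb9 and Abcd4 were too low to test, and their intensities stayed at or below 42.2 on every array.

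Of the 4 soluble members, which act in translation, Abcf2 passed against GFP shRNA, and 0 passed limma's test against vehicle (1 higher and 0 lower at an unadjusted p under 0.05). Abcf2 had 135, 98.2, 127, 132 and 130.3 in Jnk1 shRNA livers, 109, 70.0, 86.6 and 112 in GFP shRNA livers and 110.3, 103, 92.2, 86.9 and 106 in vehicle livers. Its arrays overlapped, with 0.42 ± 0.14 (adjusted p = 0.0368) against GFP shRNA and 0.32 ± 0.14 (adjusted p = 0.0815) against vehicle. The call was lost under 11 of 25 alternatives, among them leaving out GFP shRNA array 2, the lowest one (0.28, adjusted p = 0.126), GFP shRNA array 3, or Jnk1 shRNA array 1, 3, 4 or 5. Abce1, which splits ribosomes after termination, ranged over 272 to 352 in Jnk1 shRNA livers, 331 to 419 in GFP shRNA livers and 326 to 372 in vehicle livers, at -0.25 ± 0.10 (adjusted p = 0.0629) and -0.16 ± 0.09 (adjusted p = 0.18). Abcf1, which helps initiation, ranged over 297 to 340.3 in Jnk1 shRNA livers, 259.8 to 329.8 in GFP shRNA livers and 279 to 294 in vehicle livers, at 0.05 ± 0.08 (adjusted p = 0.658) and 0.11 ± 0.08 (adjusted p = 0.268), although all its Jnk1 shRNA arrays lay above all vehicle arrays. Abcf3 ranged over 94.4 to 144 in Jnk1 shRNA livers, 46.2 to 129 in GFP shRNA livers and 92.7 to 146 in vehicle livers, at 0.55 ± 0.23 (adjusted p = 0.0789) and 0.15 ± 0.22 (adjusted p = 0.639). Of 11 tested partners in initiation and termination, 2 were higher and 2 lower against GFP shRNA, and 3 were higher and 1 lower against vehicle. Pelo, 1 of those 3, passed the filter only through its Jnk1 shRNA values. The shares called over all tested probe sets were 33.1% against GFP shRNA and 37.6% against vehicle, and those of the partners were near them.

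Genes that supply or sense the cargo of the bile and sterol members were read alongside them. Of 14 tested genes of bile acid synthesis and uptake, 2 were higher and 6 lower against GFP shRNA, and 3 were higher and 9 lower against vehicle. For all tested probe sets the shares were 17.3% higher and 15.8% lower against GFP shRNA, and 18.9% and 18.7% against vehicle. Slco1a1, an uptake carrier of organic anions, had 652, 573, 228, 816 and 487 in Jnk1 shRNA livers, 1560.4, 1372, 1505 and 1393 in GFP shRNA livers and 1234, 1456, 1527, 1584 and 1631 in vehicle livers. It differed by -1.52 ± 0.25 (adjusted p = 0.000201) and -1.54 ± 0.23 (adjusted p = 7.16e-05), and its Jnk1 shRNA arrays were spread more widely than either control. Slc27a5, which activates bile acids for conjugation, had 1954, 1828, 1515, 1714 and 1922 in Jnk1 shRNA livers, 2988, 2739, 2866 and 2646 in GFP shRNA livers and 3044, 3084, 3128, 3245 and 3069 in vehicle livers. It fell by 0.66 ± 0.07 (adjusted p = 2.45e-06) and 0.81 ± 0.06 (adjusted p = 8.46e-08) on the log2 scale. Cyp27a1, which starts the acidic pathway of bile acid synthesis, differed by -0.51 ± 0.07 (adjusted p = 2.94e-05) and -0.60 ± 0.06 (adjusted p = 1.77e-06). Akr1d1, the steroid reductase of bile acid synthesis, rose, with 1318, 1527, 1397, 1427 and 1397 in Jnk1 shRNA livers, 645, 631, 574 and 639.6 in GFP shRNA livers and 689, 644, 708, 742 and 830.0 in vehicle livers. Its differences were 1.18 ± 0.07 (adjusted p = 1.91e-08) and 0.97 ± 0.07 (adjusted p = 3.42e-08). Cyp7a1, the rate-limiting enzyme, did not pass, at 0.85 ± 0.33 (adjusted p = 0.0602) and 0.36 ± 0.31 (adjusted p = 0.398). Cyp8b1, which makes cholic acid, differed by 0.17 ± 0.11 (adjusted p = 0.268) and 0.30 ± 0.11 (adjusted p = 0.0325), and the sodium-dependent bile acid carrier Slc10a1 by -0.15 ± 0.06 (adjusted p = 0.0944) and -0.36 ± 0.06 (adjusted p = 0.000222). Both passed against vehicle and not against GFP shRNA.

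Among 10 tested nuclear receptors of bile, sterol and drug response, 2 were higher and 2 lower against GFP shRNA, and 1 was higher and 3 lower against vehicle. These shares were near those of all tested probe sets, 33.1% called against GFP shRNA and 37.6% against vehicle. Nr0b2, a receptor that bile acids induce and that holds down bile acid synthesis, had 289, 376, 305, 314 and 339 in Jnk1 shRNA livers, 59.6, 83.7, 86.9 and 57.2 in GFP shRNA livers and 35.8, 102, 100.4, 10.5 and 62.3 in vehicle livers. All Jnk1 shRNA arrays were higher than all controls, at 2.20 ± 0.48 (adjusted p = 0.00214) and 2.77 ± 0.45 (adjusted p = 0.000139). Nr1h4, the bile acid receptor that is known to activate Abcb11 and Nr0b2, differed by 0.43 ± 0.11 (adjusted p = 0.00562) and 0.26 ± 0.10 (adjusted p = 0.0572). Nr1i3, a drug-sensing receptor that is known to act on transporters, fell, at -1.39 ± 0.17 (adjusted p = 1.36e-05) and -1.84 ± 0.16 (adjusted p = 2.62e-07). Hnf4a, a hepatocyte lineage receptor that is also among the hepatocyte markers above, had 1238, 1172, 1139.5, 1146 and 1178 in Jnk1 shRNA livers, 1699, 1480.3, 1924 and 1681 in GFP shRNA livers and 1603, 1831, 1872, 1760.1 and 1737 in vehicle livers, with differences of -0.52 ± 0.07 (adjusted p = 2.94e-05) and -0.58 ± 0.07 (adjusted p = 3.62e-06).

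Of 9 liver X receptor targets outside the family, 3 were higher and 3 lower against each control. Among all tested probe sets, 17.3% were higher and 15.8% lower against GFP shRNA, and 18.9% and 18.7% against vehicle. Mylip, which marks the LDL receptor for breakdown, differed by -0.86 ± 0.14 (adjusted p = 0.000156) and -1.07 ± 0.13 (adjusted p = 6.66e-06). Pltp, the phospholipid transfer protein, differed by -0.47 ± 0.11 (adjusted p = 0.00399) and -0.62 ± 0.11 (adjusted p = 0.00021). Lpl, the lipoprotein lipase, rose, at 0.94 ± 0.14 (adjusted p = 8.74e-05) and 1.98 ± 0.13 (adjusted p = 1.63e-08), and it was also higher in GFP shRNA than in vehicle, at 1.04 ± 0.14 (adjusted p = 0.000436). Lpcat3, which remodels phospholipids, differed by 0.29 ± 0.09 (adjusted p = 0.0246) and 0.33 ± 0.09 (adjusted p = 0.00713).

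**Figure D3:**
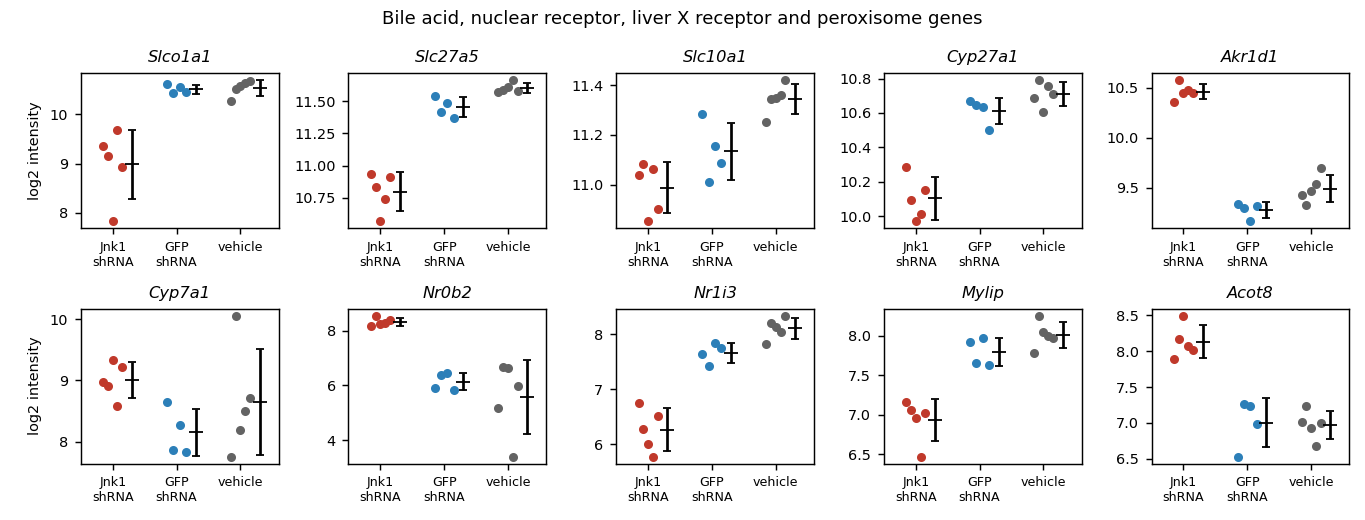
Quantile-normalized intensity on each array, as log2 with a separate axis per gene, of bile acid, nuclear receptor, liver X receptor and peroxisome genes for Jnk1 shRNA, GFP shRNA and vehicle. Dashes are group means and bars their SD. Akr1d1 and Nr0b2 are higher and Slc27a5, Slco1a1 and Nr1i3 lower on the Jnk1 shRNA arrays than on the controls.

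**Figure D4:**
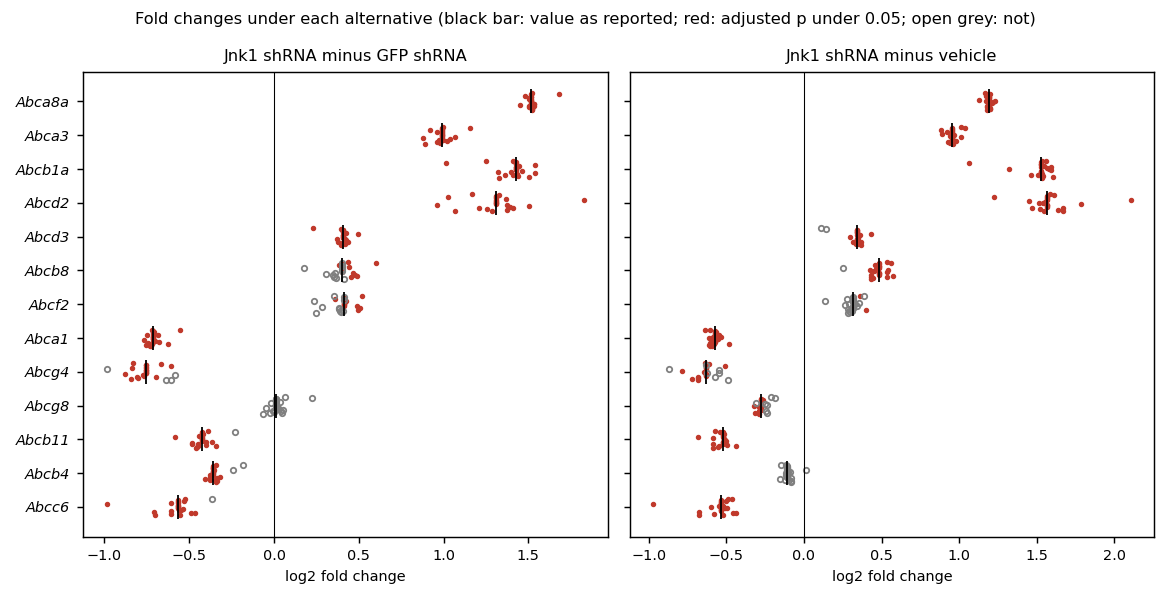
Log2 difference of each called ABC gene as reported (black bar) and under each of 25 alternatives, for Jnk1 shRNA against GFP shRNA and against vehicle. Red points passed an adjusted p under 0.05 and open grey points did not. Abca8a, Abca3 and Abca1 have red points throughout, while Abcb8 and Abcf2 show many open ones.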

How the data were processed

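Liver RNA of 14 samples was measured on 1-colour Affymetrix mouse arrays. The authors deposited linear probe set intensities for 22690 probe sets; the sources used here name no software, background correction or detection calls for them. The deposited arrays shared a trimmed mean of 150.05 to 150.06, while their medians ran from 41.8 to 58.3. Intensities were therefore quantile normalized, floored at the 5th percentile (2.01) and log2 transformed. The 64 control probe sets and the 40% of the others with the lowest mean were left out, which kept 13575 probe sets with a mean of at least 28.4.

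Gene names came from the platform annotation, and all 36 members matched RefSeq genes of GRCm38.p6. Groups were taken from the labels. Limma 3.58.1 in R 4.3.3 fitted 3 group means to all 14 arrays with an intensity trend (11 residual and 4.94 prior degrees of freedom). Differences of mean log2 intensity are given with their standard error, p-values were adjusted over all 13575 probe sets (Benjamini-Hochberg), and a call needs an adjusted p under 0.05. Mapk8 and the mean of 18 hybridization control probe sets were compared by exact permutation. The number of arrays limits the precision.

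The members, their roles and the pathway and marker lists were chosen with earlier results of these data known. Named with values were all members called, the main bile, sterol, peroxisomal, mitochondrial, conjugate and translation members, up to 4 genes with the smallest p against GFP shRNA from a pathway list, and Cyp7a1, Cyp8b1 and Slc10a1. Promoters were available for 27 members (RefSeq, GRCm38.p6). The script was tested on simulated data. Samples with the same replicate number did not deviate together (correlations of -0.24 to 0.12 over 13 pairs), so the numbers were not taken as pairs. Alternatives were other scalings, filters, a pseudocount of 16, variance models, 2-group fits, 1 probe set per gene, a replicate block, the control RNA level as a covariate, and leaving out arrays.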

Additional observations from a re-analysis of the deposited data

Results flagged for a closer look

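Of 84 groups of 4 or 5 arrays checked over the 28 tested members, 11 (13.1%) held an array far from the rest by Dixon's gap test, which chance alone sets off in about 1 group in 20. Abca1 stood at 877 on Jnk1 shRNA array 3, below the 1145 to 1248 of the other arrays of that group. Abca8a lay at 415 on GFP shRNA array 3, below the 492 to 495 of the other arrays of that group. Abcb10 was at 118 on Jnk1 shRNA array 5, below the 142 to 151 of the other arrays of that group. Abcb11 stood at 1210.1 on vehicle array 1, below the 1482 to 1541 of the other arrays of that group. Each of these 4 was a single low array. Abcb1a lay at 12.8 on vehicle array 4, below the 25.2 to 27.0 of the other arrays of that group. Abcb4 was at 1433 on GFP shRNA array 3, above the 1268 to 1293 of the other arrays of that group. Abcc9 stood at 29.2 on GFP shRNA array 2, below the 46.4 to 49.5 of the other arrays of that group. Abcd3 lay at 2176 on GFP shRNA array 2, below the 2401 to 2449.7 of the other arrays of that group. Abcd3 was at 2199 on vehicle array 4, below the 2523 to 2591 of the other arrays of that group. Abcf2 stood at 98.2 on Jnk1 shRNA array 2, below the 127 to 135 of the other arrays of that group. Abcf3 lay at 94.4 on Jnk1 shRNA array 3, below the 133 to 144 of the other arrays of that group. The 11 flags were spread over Jnk1 shRNA (4), GFP shRNA (4) and vehicle (3) and fell partly on the same arrays. Jnk1 shRNA array 3, GFP shRNA arrays 2 and 3 and vehicle array 4 were each flagged for more than 1 gene. GFP shRNA array 2, which stood apart in its median, was the low array of Abcc9 and of Abcd3 in that group. The causes were not tested.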

How the results depend on the processing

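Of 84 results (28 members in 3 comparisons), 23 were calls, 2 of them of Abcb1a. Over 25 alternatives, 13 calls held in all that tested them, 10 were lost in at least 1, and 0 changed sign. The 13 include the 2 calls of Abcb1a, which had to differ and so are no test. Another 10 results became calls in at least 1. The stricter filter tested 23 members, Abcb1a and Abcd2 not among them. Members lower against GFP shRNA numbered 2 under median scaling and 3 with the control RNA level as a covariate, against 5 as reported, and that covariate gave 3 lower against vehicle, against 5. Without single arrays, the members lower against vehicle ranged from 3 (without vehicle array 1 or Jnk1 shRNA array 2) to 5. In GFP shRNA against vehicle, where 0 were called, 1 was higher with intensities as deposited, the stricter filter, 2-group fits, the covariate and 1 probe set per gene, 1 was lower with the first, second and last of these, and leaving out single arrays gave 0 to 1 each way; the genes were Abca8a (lower), Abcb4 and Abcg3. Over all probe sets, the covariate cut the calls to 2349 of 4497 against GFP shRNA and 3013 of 5099 against vehicle, and 2-group fits gave 209, against 350, for GFP shRNA and vehicle. The covariate differed between Jnk1 shRNA and both controls, so what a call lost under it means cannot be told. The control RNA difference was -0.38 under median scaling (exact permutation p = 0.0714) and -0.60 to -0.38 without single arrays, against -0.50. The replicate block, though the numbers do not pair the samples, gave 8 higher and 5 lower members against GFP shRNA and 6 and 5 against vehicle, with 4101, 4825 and 247 calls over all probe sets. Without detection calls, low intensities such as those of Abcb1a have no measured background. The causes of these shifts were not tested.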

Other observations

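Several members have more than 1 probe set, and those of Abcf1 and Abcf3 did not give 1 value. Abcf1, chosen at a log2 difference of 0.05 ± 0.08 between Jnk1 shRNA and GFP shRNA, had another probe set at 0.62 ± 0.23 (limma, adjusted p = 0.05), and against vehicle that probe set was higher, at 0.75 ± 0.22 (adjusted p = 0.0127). Abcf3, chosen at 0.55 ± 0.23, had a second tested probe set at -0.65 ± 0.22 (adjusted p = 0.0358) against GFP shRNA. For Abce1, the chosen probe set gave -0.25 ± 0.10 and the other 0.11 ± 0.15. Abcc5 differed from vehicle by -0.13 ± 0.24 in the chosen probe set. Its other tested probe sets gave 0.39 ± 0.30 and 0.34 ± 0.25 there, and none of these passed. Abca1 and Abca3 are the called members with more than 1 tested probe set, and all of their tested probe sets moved in the direction reported.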
